A study of Mus musculus with 49 samples.

Results

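The lysozyme gene Lyz1, the angiogenin gene Ang4 and 5 alpha-defensin rows (Defa22, Defa24, Defa29, Defa30 and Gm14851) encode products that mouse Paneth cells store in their granules. These 7 genes were taken from a UMI count table of 46078 Ensembl gene rows, as the rows whose identifier maps to the listed symbols. All 7 were found. The table holds 49 CEL-Seq2 libraries of 16 groups from wild-type C57BL/6J mice, in a study that compared intestinal organoids grown from hepatocytes with organoids grown from the intestine itself.

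Fresh hepatocytes (FH, 3 libraries) came from the livers of 10-week-old animals and had been freed of non-parenchymal cells by repeated centrifugation. In culture with 20 ng/mL EGF they lose their hepatocyte character, and the resulting cells are called dediHeps (5 libraries). dediHep-derived SOs are spherical organoids that these cells formed in Matrigel with EGF, Noggin, R-spondin1, Wnt3a and CHIR99021, a GSK3 inhibitor that activates Wnt signalling (3 libraries). dediHep-derived BOs are budding organoids that grew from dediHeps carrying a retroviral Cdx2, an intestinal transcription factor, after serial passage as SOs and a change to medium without Wnt3a and CHIR99021 (3 libraries). dediHep-derived BOs and SOs thus differed in Cdx2, medium, form and passage at once, and the parts of these in a difference cannot be told apart. FIPC-derived SOs grew in the same SO medium from fetal intestinal cells of E13.5 embryos (3 libraries), and ISC-derived BOs grew without Wnt3a and CHIR99021 from crypts of the small intestine of 10-week-old adults (4 libraries). ISC-derived BOs and FIPC-derived SOs likewise differed in age of source, medium and form together. The other 10 groups were hepatocytes at 6 times of culture from 3 h to 2 weeks (3 libraries each), hepatocytes kept 7 days with 0.3 µM verteporfin or with DMSO (2 each), dediHep aggregates (3) and CLiPs, proliferative cells induced from hepatocytes (3). The dediHep-derived SO libraries carry 3 different culture codes in the labels, which dediHep libraries also carry. The study's methods describe its experiments in general as repeated independently, but the labels tie no library of the other organoid groups to a culture or animal of its own. P-values for these groups therefore measure the spread between the libraries, which may be technical in part.

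The libraries held between 861047 and 3872936 UMI counts, and the 13 organoid libraries between 1757504 and 2931078. Alb, the hepatocyte marker, had 3607 to 3771 counts in FH, 2 counts in 1 ISC-derived BO library and 0 in the other organoid libraries. Cdx2 had 273, 140 and 227 counts in dediHep-derived SOs, 354, 465 and 825 in dediHep-derived BOs, 780 to 1045 in FIPC-derived SOs, 630 to 857 in ISC-derived BOs and 0 in FH; whether reads of the retroviral Cdx2 enter this row is not known.

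Paneth cells sit at the base of the small intestinal crypt beside the stem cells and secrete antimicrobial proteins from large granules. Lysozyme cleaves the peptidoglycan of the bacterial cell wall, alpha-defensins (cryptdins in the mouse) are small cationic peptides that disrupt microbial membranes after cleavage by the protease Mmp7, and Ang4 is a secreted ribonuclease of the angiogenin family with bactericidal activity. Paneth cell differentiation depends on Wnt signalling through beta-catenin and TCF4 and on the factors Atoh1, Gfi1 and Sox9. Fetal intestine before birth has no mature crypts, and Lyz2, the neighbour of Lyz1, is the lysozyme of macrophages.

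On GRCm38 with the GENCODE M21 annotation, the 5 defensin rows lay on chromosome 8 within 640.4 kb. Gm14851 lies at chr8:21095074-21096050 on the minus strand, Defa30 at chr8:21134642-21135598 on the plus strand, Defa22 at chr8:21162277-21163249 on the plus strand, Defa29 at chr8:21325887-21327020 on the minus strand and Defa24 at chr8:21734494-21735471 on the plus strand. Each has 2 exons. Lyz1 (4 exons) lies at chr10:117287797-117292868 on the minus strand, 5.5 kb from Lyz2, and Ang4 (2 exons) at chr14:51763878-51773590 on the minus strand.

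The promoters are shown because Lyz1 and Ang4 did not share the direction of the defensin rows between the budding organoids below. RefSeq promoters (GRCm38.p6) were matched for 5 of the 7 genes, Gm14851 under its RefSeq symbol Defa38. Each line gives the 200 bases before the RefSeq start, 5′ to 3′ on the strand of the gene, and positions are counted from that start. For Defa30 the RefSeq start lies downstream of the GENCODE start given above, so its window runs a few bases into the gene as GENCODE has it. Capitals mark the TCF/LEF motif CTTTGAT, which on these strands reads ATCAAAG.
Defa22, chr8:21162077-21162276, plus strand: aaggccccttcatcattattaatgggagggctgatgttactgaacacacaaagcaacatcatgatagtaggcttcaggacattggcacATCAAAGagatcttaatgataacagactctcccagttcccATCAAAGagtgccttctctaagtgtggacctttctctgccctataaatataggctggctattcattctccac
Defa30, chr8:21134450-21134649, plus strand: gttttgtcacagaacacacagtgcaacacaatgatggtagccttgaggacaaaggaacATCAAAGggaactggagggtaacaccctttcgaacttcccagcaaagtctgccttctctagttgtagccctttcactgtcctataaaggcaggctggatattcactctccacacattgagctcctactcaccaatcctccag
Gm14851, chr8:21096051-21096250, minus strand: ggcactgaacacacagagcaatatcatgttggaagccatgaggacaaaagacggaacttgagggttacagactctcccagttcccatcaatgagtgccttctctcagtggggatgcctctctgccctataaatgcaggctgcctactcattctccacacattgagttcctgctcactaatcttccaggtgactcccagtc
Lyz1, chr10:117292869-117293068, minus strand: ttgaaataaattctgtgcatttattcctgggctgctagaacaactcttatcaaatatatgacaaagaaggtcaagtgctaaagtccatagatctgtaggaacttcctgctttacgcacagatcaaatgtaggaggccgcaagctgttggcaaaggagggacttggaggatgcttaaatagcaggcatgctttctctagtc
Ang4, chr14:51773591-51773790, minus strand: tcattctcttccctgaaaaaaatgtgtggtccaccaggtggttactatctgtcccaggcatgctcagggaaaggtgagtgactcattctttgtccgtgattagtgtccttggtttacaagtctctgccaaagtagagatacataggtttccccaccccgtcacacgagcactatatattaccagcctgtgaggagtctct
The Defa22 promoter held the TCF/LEF motif at 112 and 72 bases upstream of the start and the Defa30 promoter at 142 bases upstream. The promoters of Gm14851, Lyz1 and Ang4 did not hold these letters in this window. Of 32851 promoters of the same length, 2.45% held CTTTGAT on either strand. The Lyz1 promoter held TTTATT, a Cdx motif, at 181 and 196 bases upstream, and 14.1% of all promoters held it. The other motifs searched on both strands were CTTTGAA, in 3.42% of promoters, TTTATG, in 8.51%, and the forkhead motif TGTTTAC, in 2.51%, and none of these was found in the 5 promoters. A match of letters is a description of the sequence and no evidence of binding.

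CEL-Seq2 counts the 3′ ends of transcripts, so the sharing of 3′ sequence bears on what a row counts. In the last 400 bases of the transcript, 73.5% of the 50-base words of Defa22 also occurred in other genes (71.2% in Defa21), as did 55.6% for Gm14851, 52.4% for Defa30, 47.9% for Defa29 and 29.6% for Defa24. The same share was 19.1% for Lyz1, all of it in Lyz2, and 8.83% for Ang4, mostly in Ang5. How the counting treated reads that fit several genes is not given in the sources used here, so the level of a single defensin row is uncertain and the defensins are also given as a sum.

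Lyz1 reached like levels in both kinds of budding organoid. Its UMI counts were 3740, 3738 and 3056 in dediHep-derived BOs and 3180, 2756, 3066 and 3116 in ISC-derived BOs. Scaled for library size (CPM) with factors over all 49 libraries, this was 1601.7 ± 277.7 (SD, n = 3) against 1426.8 ± 262.9 (n = 4). The ranges overlapped, and the fitted log2 fold change of dediHep-derived over ISC-derived BOs was 0.22 ± 0.174 (SE; FDR = 0.453 by edgeR's quasi-likelihood test with Benjamini-Hochberg adjustment, as for every FDR here).

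**Figure D1:**
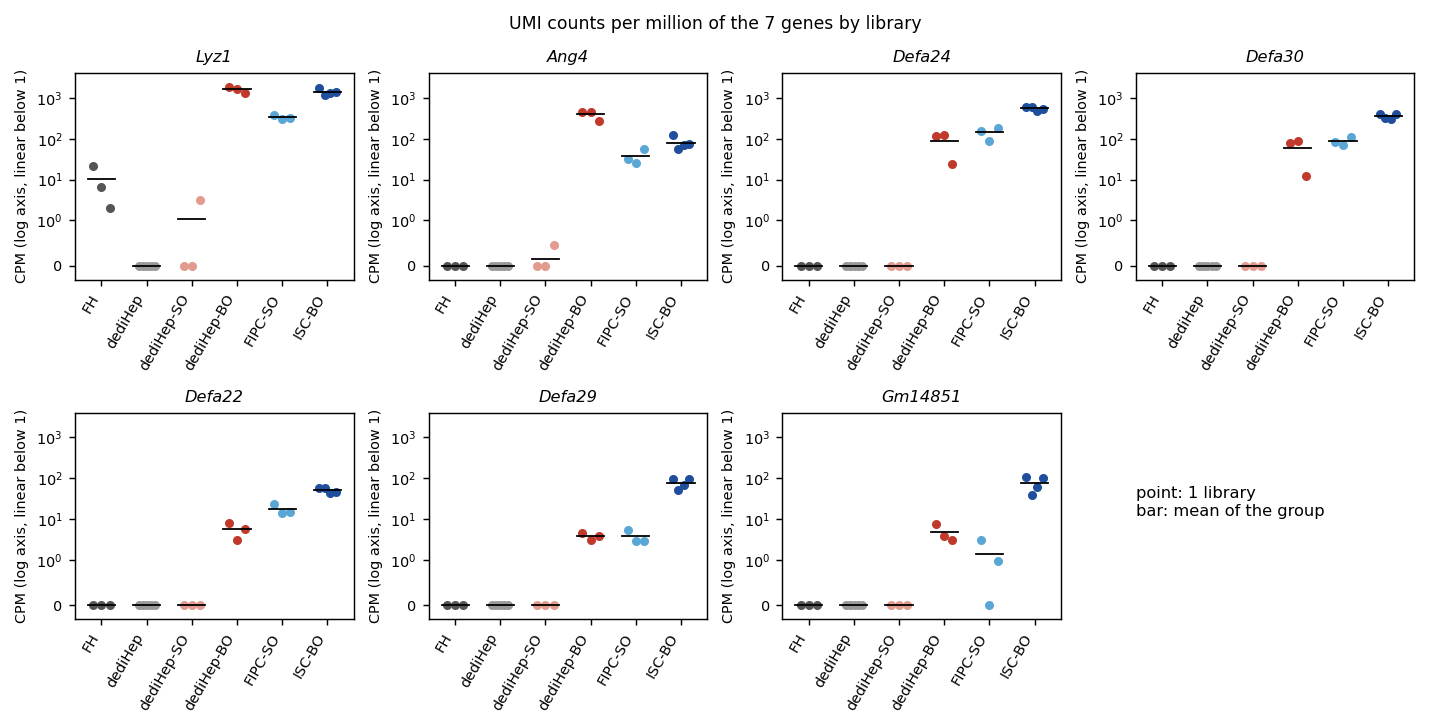
Counts scaled for library size (CPM, log axis, linear below 1) of Lyz1, Ang4 and the 5 defensin rows in fresh hepatocytes (FH), dediHeps, dediHep-derived SOs and BOs, FIPC-derived SOs and ISC-derived BOs; a point is 1 library and a bar the mean of its group. Lyz1 lies at like levels in both kinds of BO, Ang4 is highest in dediHep-derived BOs, and all 5 defensin rows are highest in ISC-derived BOs.

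FIPC-derived SOs held less Lyz1, with 958, 852 and 1009 counts (334.8 ± 32.0 CPM, n = 3). dediHep-derived SOs had 0, 0 and 7 counts, and dediHeps and their aggregates had 0 in all 8 libraries. For dediHep-derived SOs, a count of 0 in a library allows up to 0.945 to 1.51 CPM. By their means the order was dediHep-derived BOs, ISC-derived BOs, FIPC-derived SOs and dediHep-derived SOs, of which the first neighbours did not differ beyond their spread.

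The Lyz1 counts of the budding organoids came close to the number of different 6-base UMIs, at which a row can rise no further in a library. When each count was corrected for molecules that share a UMI, on the assumption that all UMIs are used equally, the Lyz1 estimates became 10006, 9983 and 5615 in dediHep-derived BOs, 6135, 4577, 5654 and 5858 in ISC-derived BOs and 1091, 955 and 1158 in FIPC-derived SOs. The correction raised the counts by 83.7 to 167.5% in dediHep-derived BOs, by 66.1 to 92.9% in ISC-derived BOs and by 12.1 to 14.8% in FIPC-derived SOs. On corrected counts the log2 fold change of dediHep-derived over ISC-derived BOs was 0.64 (FDR = 0.196), and that of ISC-derived BOs over FIPC-derived SOs was 2.73 against 2.03 on the counts as deposited. On that assumption, folds of Lyz1 that involve budding organoids are smaller in the deposited counts than in the corrected ones.

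**Figure D2:**
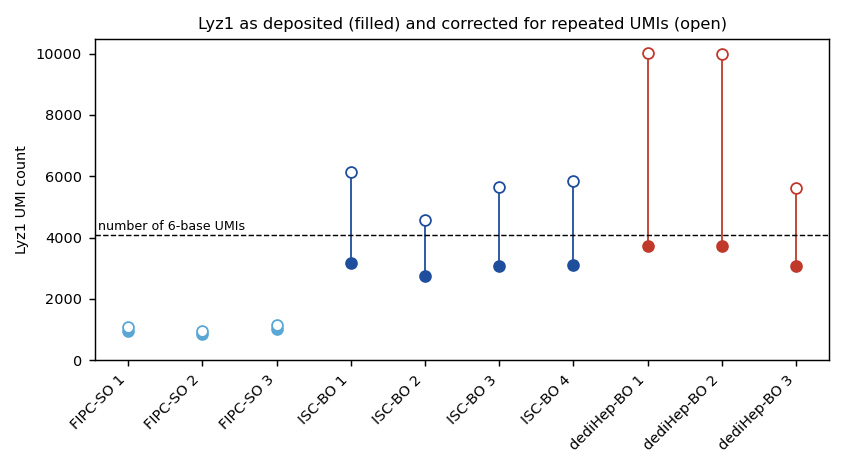
Lyz1 UMI counts in each FIPC-derived SO, ISC-derived BO and dediHep-derived BO library as deposited (filled) and corrected for repeated UMIs (open), with the number of different 6-base UMIs as a dashed line. The correction is largest in dediHep-derived BO libraries 1 and 2, where 3740 and 3738 deposited counts become 10006 and 9983.

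Ang4 was higher in dediHep-derived BOs than in any other group. The counts were 901, 1034 and 644 in dediHep-derived BOs, 215, 131, 166 and 159 in ISC-derived BOs and 81, 69 and 169 in FIPC-derived SOs. dediHep-derived SOs had 0, 0 and 1 count, and the 36 libraries outside the organoids had 0. Every dediHep-derived BO library lay above every ISC-derived BO library, with 391.8 ± 99.0 CPM (SD, n = 3) against 80.2 ± 28.2 CPM (n = 4). This was a log2 fold change of 2.35 ± 0.291 (SE; 5.11-fold; FDR = 0.00104), and leaving out dediHep-derived BO library 3, the lowest, gave 2.55. ISC-derived BOs and FIPC-derived SOs lay next to each other, with a lowest of 55.4 CPM in the former and a highest of 54.6 CPM in the latter.

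The 5 defensin rows showed the opposite order between the budding organoids. Defa24, the most abundant of them, had 239, 291 and 55 counts in dediHep-derived BOs, 1088, 1386, 1067 and 1174 in ISC-derived BOs and 409, 248 and 567 in FIPC-derived SOs. Defa30 followed with 159, 204 and 29 counts in dediHep-derived BOs, 721, 772, 706 and 897 in ISC-derived BOs and 216, 198 and 344 in FIPC-derived SOs. For both rows all 4 ISC-derived BO libraries lay above all others, while dediHep-derived BOs and FIPC-derived SOs overlapped.

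The 3 rarer rows had at most 16 counts in any dediHep-derived BO library. Defa22 had 16, 7 and 13 counts there, 102, 134, 99 and 100 in ISC-derived BOs and 60, 38 and 46 in FIPC-derived SOs. Defa29 had 9, 7 and 9 counts in dediHep-derived BOs, 169, 121, 152 and 202 in ISC-derived BOs and 14, 8 and 9 in FIPC-derived SOs. Gm14851 had 15, 9 and 7 counts in dediHep-derived BOs, 188, 89, 140 and 216 in ISC-derived BOs and 8, 0 and 3 in FIPC-derived SOs. The order of FIPC-derived SOs and dediHep-derived BOs thus differed between rows: FIPC-derived SOs were above for Defa22, and the groups overlapped for Defa29 and Gm14851. All 5 rows were at 0 in all 3 dediHep-derived SO libraries, and outside the organoids the only defensin count of the 5 was 1 count of Defa29 in a DMSO library.

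Between dediHep-derived and ISC-derived BOs, 6 of the 7 genes passed FDR below 0.1 with a log2 fold change over 2 in size. Ang4 was called higher, where 1.34% of all 11303 tested genes were, and all 5 defensin rows were called lower, where 1.71% of all tested genes were. Defa22, Defa29 and Gm14851 passed the filter on low counts only through ISC-derived BOs. Their direction was thus set by the filter, and their part in this count is a description. The log2 fold changes were -2.53 ± 0.512 for Defa30 (FDR = 0.0164) and -2.55 ± 0.462 for Defa24 (FDR = 0.00919), which is 5.76-fold and 5.86-fold lower. They were larger for Defa22 at -3.14 ± 0.35 (FDR = 0.000553), Gm14851 at -3.92 ± 0.474 (FDR = 0.000922) and Defa29 at -4.25 ± 0.362 (FDR = 0.000107, 19.1-fold lower). All 6 calls held when any single library was left out. In bulk libraries, fewer Paneth cells and less RNA of a gene per Paneth cell cannot be told apart.

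dediHep-derived BO library 3 stood apart from libraries 1 and 2 in some of these genes. Against the mean of the other two libraries it was 6.71-fold lower for Defa30, 5.18-fold for Defa24, 1.89-fold for Gm14851, 1.62-fold for Ang4 and 1.32-fold for Lyz1, whereas Defa22 and Defa29 lay at ratios of 0.985 and 0.971. Other granule genes were low in the same library: Reg3b had 2700, 2052 and 102 counts, Reg3g 1843, 1160 and 174, Mptx1 400, 317 and 5, and Itln1 2914, 3320 and 1423. The summed CPM of the enteroendocrine markers there was 125.9, against 454.0 and 482.8 in libraries 1 and 2, while the summed stem cell markers were 1311.7 against 1567.8 and 1468.7, and the goblet cell markers 1139.3 against 1479.7 and 1224.9. Whether these differences bear on the low defensin counts was not tested. Without library 3, the log2 fold changes against ISC-derived BOs were -2.05 for Defa30, -2.10 for Defa24, -3.15 for Defa22, -3.67 for Gm14851 and -4.27 for Defa29, and all 5 were still called.

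Because Lyz1 and Ang4 did not share the direction of the defensin rows between the budding organoids, their balance was taken within each library, a quantity chosen after the values were seen. For each count over the 5 defensin rows there were 8.54, 7.22 and 27.0 counts of Lyz1 in dediHep-derived BOs, 1.40, 1.10, 1.42 and 1.20 in ISC-derived BOs and 1.36, 1.73 and 1.04 in FIPC-derived SOs. For Ang4 the ratios were 2.06, 2.00 and 5.70 in dediHep-derived BOs, 0.0948, 0.0524, 0.0767 and 0.0614 in ISC-derived BOs and 0.115, 0.140 and 0.174 in FIPC-derived SOs. ISC-derived BOs and FIPC-derived SOs overlapped in the Lyz1 ratio, and dediHep-derived BOs lay above both in every library and in both ratios.

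The Lyz1 ratio was 9.31-fold higher in dediHep-derived BOs than in ISC-derived BOs and 8.80-fold higher than in FIPC-derived SOs, and the Ang4 ratio 41.1-fold and 20.3-fold higher. Library 3 had the highest ratios: without it the Lyz1 ratio was 6.16-fold and 5.83-fold higher and the Ang4 ratio 29.1-fold and 14.4-fold higher. Exact two-sided permutation tests gave p = 0.0571 against ISC-derived BOs and p = 0.1 against FIPC-derived SOs for both ratios, the smallest values that 3 against 4 and 3 against 3 libraries allow, and 0.1 for all 4 after Benjamini-Hochberg adjustment. The design therefore cannot pass 0.05 here. Because the ratios were chosen after the values were seen, these p-values describe the separation of the libraries and carry no independent test of it. The Lyz1 ratios used the deposited counts, which the correction for shared UMIs raised most in dediHep-derived BOs.

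**Figure D3:**
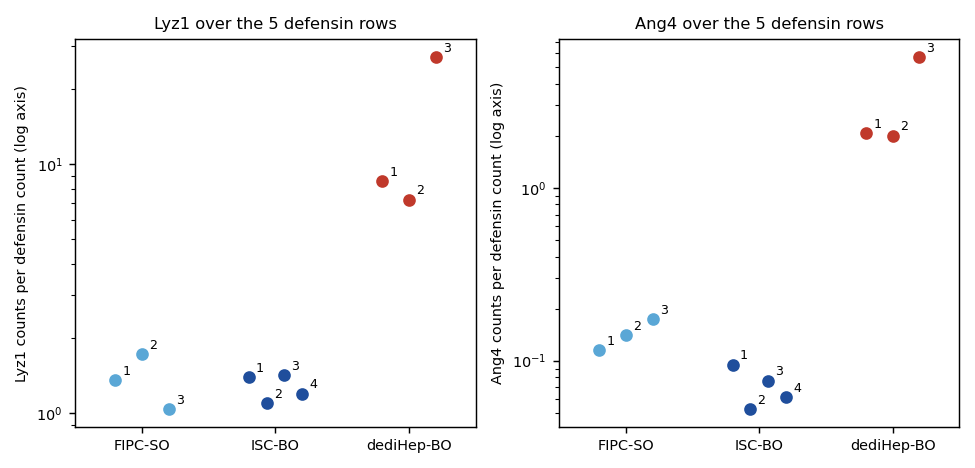
Counts of Lyz1 (left) and Ang4 (right) per count summed over the 5 defensin rows (log axes), with a numbered point for each library. dediHep-derived BOs lie at 7.22 to 27.0 for Lyz1 and 2.00 to 5.70 for Ang4, above every FIPC-derived SO and ISC-derived BO library.

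The composition of the 5 rows was close between the groups for the abundant members. Defa24 made up 53.2 ± 3.95% (SD, n = 3) of their counts in dediHep-derived BOs, 55.6 ± 4.51% (n = 3) in FIPC-derived SOs and 49.5 ± 4.27% (n = 4) in ISC-derived BOs, and Defa30 33.8 ± 7.18%, 35.4 ± 4.80% and 32.5 ± 1.58%. Defa29 and Gm14851 made up 6.78 ± 1.33% and 6.66 ± 2.25% in ISC-derived BOs but 1.51 ± 0.535% and 0.480 ± 0.584% in FIPC-derived SOs. In dediHep-derived BOs they spread widely, at 2.05, 1.35 and 7.96% for Defa29 and 3.42, 1.74 and 6.19% for Gm14851, with library 3 within the range of ISC-derived BOs for Gm14851 and just above it for Defa29. Defa22 made up 3.65, 1.35 and 11.5% in dediHep-derived BOs, 6.99 ± 1.97% in FIPC-derived SOs and 4.57 ± 0.615% in ISC-derived BOs.

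The rest of the family gave a wider view of the alpha-defensins. The table holds 45 alpha-defensin rows, the 5 above and 40 others, of which 37 had a count. Summed over all of them there were 1771, 1871 and 575 counts in dediHep-derived BOs, 2454, 1763 and 2844 in FIPC-derived SOs and 7221, 6750, 6638 and 7692 in ISC-derived BOs. This is 0.0275 to 0.0954% of the library in dediHep-derived BOs, 0.0783 to 0.115% in FIPC-derived SOs and 0.289 to 0.411% in ISC-derived BOs. All ISC-derived BO libraries lay above the others.

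Of the 40 other rows, 24 passed the filter on low counts between dediHep-derived and ISC-derived BOs. All 24 had a negative log2 fold change, and 18 were called lower, where 1.71% of all tested genes were, and 0 higher. Their median was -2.51 beside 0 over all tested genes. Many of these rows share 3′ sequence with the 5 above, for example Defa17 and Defa3 with 25.5% of the words of Defa30, so they are not separate pieces of evidence. A row that passed the filter through its counts in ISC-derived BOs could hardly differ in the other direction, so these numbers describe the rows tested and not the family. AY761184 changed most, with 8, 5 and 1 counts in dediHep-derived BOs and 292, 220, 271 and 444 in ISC-derived BOs, a log2 fold change of -5.98. Gm7849, Gm7861 and Gm15293 followed at -3.85, -3.54 and -3.42. Defa3 had the smallest difference at -1.50, with 319, 302 and 103 counts against 732, 633, 708 and 726. Without dediHep-derived BO library 3, all 24 stayed negative and 17 were called.

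**Figure D4:**
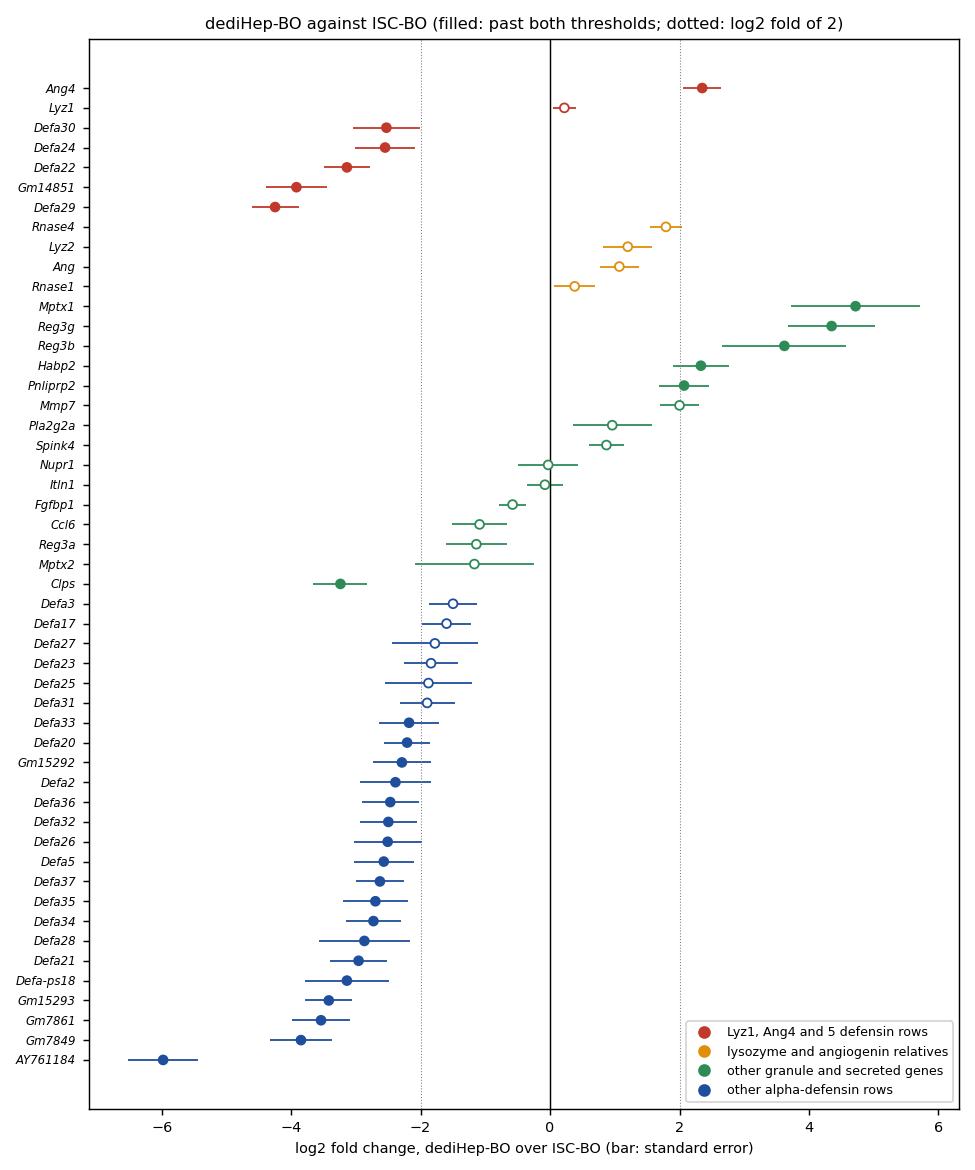
Log2 fold change of dediHep-derived BOs over ISC-derived BOs with its standard error for Lyz1, Ang4, the 5 defensin rows, their relatives, other granule and secreted genes and the other alpha-defensin rows; filled points passed both thresholds and dotted lines mark a log2 fold of 2. Every alpha-defensin row lies left of 0, from -1.50 for Defa3 to -5.98 for AY761184, whereas Ang4 lies at 2.35 and Lyz1 at 0.22.

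The tested relatives of lysozyme and angiogenin had positive log2 fold changes between the budding organoids, but none was called. Lyz2 had 2105, 1574 and 918 counts in dediHep-derived BOs, 798, 355, 623 and 921 in ISC-derived BOs, 72, 131 and 167 in FIPC-derived SOs and 0 in dediHep-derived SOs. Its log2 fold change between the budding organoids was 1.20 (FDR = 0.0901), under the fold threshold. Lyz1 counts exceeded Lyz2 counts 1.78-, 2.37- and 3.33-fold in dediHep-derived BOs and 3.38- to 7.76-fold in ISC-derived BOs, on counts not corrected for shared UMIs. Rnase4 (1.79, FDR = 0.00195), Ang (1.07, FDR = 0.0639) and Rnase1 (0.38, FDR = 0.492), ribonucleases of the same family, were not past the fold threshold either. Of the 7 relatives in the table, 4 were tested and 0 called, with 3 at FDR below 0.1. Without dediHep-derived BO library 3, 5 were tested and 1 was called higher, Ang5, whose 3′ end shares words with that of Ang4. Against dediHep-derived SOs, 4 relatives passed the filter and were called higher in dediHep-derived BOs, where 5.6% of all tested genes were. Lyz2 was at least 1701.3-fold higher (FDR = 3.62e-05, 0 counts in SOs), with Rnase1 at 7.37, Rnase4 at 3.22 and Ang at 2.17. Lyz2 and Rnase1, with 0 and 2 counts over the SOs, passed the filter only through the BOs, so the filter set their direction. Without dediHep-derived SO library 3 the call of Ang was lost and Ang5 was called.

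The next comparison asks what set dediHep-derived BOs apart from dediHep-derived SOs. Of the 7 genes, 4 passed the filter on low counts, and these 4 were called higher in BOs, where 5.6% of all tested genes were. With 0 to 7 counts over the SO libraries they passed only through the BOs, so their direction was set by the filter and the count is a description; the sizes are given for each gene. Lyz1 rose by a log2 fold change of 10.6 ± 0.748 (FDR = 2.3e-05), and the 7 counts on the SO side all came from library 3. Ang4 rose from 1 count over 3 libraries to 2579, a ratio of 2863.3 with a counting interval of 513.5 to 113138.4 (FDR = 1.98e-05). With SOs at 0 and a limit of 3 counts over the group, Defa24 was at least 216.5-fold higher (FDR = 0.000648) and Defa30 at least 145.1-fold higher (FDR = 0.00134). Defa22, Gm14851 and Defa29 did not pass the filter on low counts and were at least 13.3-, 11.5- and 9.25-fold higher. Without dediHep-derived SO library 3, the fitted value of Lyz1 was 14.9, which depends on the prior count since the remaining SO libraries were at 0, and 5 of the 7 genes were called. Of the other alpha-defensin rows, 7 passed the filter, with 0 counts in SOs, and were called higher in BOs (12 without dediHep-derived BO library 3 and 15 without dediHep-derived SO library 3), a direction that the filter set too.

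ISC-derived BOs were compared with FIPC-derived SOs as the adult budding and the fetal spherical form of intestine-derived organoids. All 7 genes had FDR below 0.1 and a higher level in ISC-derived BOs, and 3 also passed the fold threshold, where 4% of all tested genes were called higher. These were Gm14851 (log2 fold change 5.72, FDR = 0.000343), Defa29 (4.27, FDR = 6.7e-05) and Lyz1 (2.03, FDR = 7.32e-05). Gm14851 and Defa29 passed the filter on low counts only through ISC-derived BOs, so the filter set their direction and their calls are a description. Leaving out FIPC-derived SO library 2 or ISC-derived BO library 1 gave 1.97 and 1.91 for Lyz1 and ended that call. Defa30 (1.96, FDR = 0.000374), Defa24 (1.87, FDR = 0.000818), Defa22 (1.49, FDR = 0.00628) and Ang4 (1.04, FDR = 0.0963) stayed under the fold threshold. Among the other alpha-defensin rows, 24 were tested, all 24 were higher in ISC-derived BOs and 12 were called, with a median of 2.02, led by AY761184 at 5.55. Some of these rows, such as Defa28 with 9 counts over the FIPC-derived SOs, also passed the filter only through ISC-derived BOs.

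Between the spherical organoids, 5 of the 7 genes passed the filter and were called lower in dediHep-derived than in FIPC-derived SOs, where 3.99% of all tested genes were. These too passed only through the group in which they were high, the FIPC-derived SOs, so the count is a description. Lyz1 differed by a log2 fold change of -8.36 (FDR = 0.000207). Ang4 had 1 count against 319, a difference of -7.67 (FDR = 0.000232). Defa24, Defa30 and Defa22 were at least 359.3-, 222.5- and 42.3-fold lower, with FDR values of 0.000139, 0.000118 and 0.000723, and Defa29 and Gm14851, which were not tested, at least 9.1- and 3.23-fold lower. dediHep-derived SOs against dediHeps gave no test, since all 7 genes were under the filter in both.

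The comparisons above share libraries, so their values stand side by side. The difference between BOs and SOs was itself compared between dediHep-derived and intestine-derived organoids. On the log2 scale 5 of the 7 genes showed a larger rise in the dediHep-derived pair, where 5.37% of 12379 tested genes were called in that direction. Defa29 (1.91, FDR = 0.251) and Gm14851 (0.78, FDR = 0.586) were not called. These log2 sizes, and largely their direction, rest on dediHep-derived SOs at or near 0, so the calls are a description. In CPM, Defa24, Defa30 and Defa22 rose more in the intestine-derived pair, Defa24 from 143.6 to 549.3 there against 0 to 89.7. Lyz1 and Ang4 rose more in the dediHep-derived pair on both scales. Against fresh hepatocytes, Lyz1 was higher by 7.18 (FDR = 1.55e-05) in dediHep-derived BOs and by 6.94 (FDR = 3.84e-06) in ISC-derived BOs. Called higher than in FH were 4 of the 7 genes in dediHep-derived BOs (14.2% of all tested genes) and 7 of 7 in ISC-derived BOs (14.8%). FH had 20, 5 and 2 counts of Lyz1 and 0 of the other genes. Each gene tested, Lyz1 included, thus passed the filter only through the BOs, so its direction was set by the filter and these counts are a description. Ang4 was at least 327.8-fold higher in dediHep-derived BOs and at least 61.7-fold in ISC-derived BOs, and Defa24 at least 74.3-fold and 433.4-fold higher.

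Other genes listed for Paneth cell granules and secretion varied in direction. Of 15 other granule and secreted genes, 5 were called higher in dediHep-derived than in ISC-derived BOs and 1 lower. Over all tested genes, 1.34% were called higher and 1.71% lower. Higher were Mptx1, a pentraxin (4.72, FDR = 0.0195), the Reg3 lectins Reg3g (4.35, FDR = 0.0036) and Reg3b (3.62, FDR = 0.0514), Habp2 (2.33) and the lipase relative Pnliprp2 (2.07), and lower was colipase, Clps (-3.24, FDR = 0.00132). The call of Reg3b was lost when any of 3 single libraries was left out. Mptx1, Reg3g and Reg3b were low in dediHep-derived BO library 3, and without it they stood at 5.29, 4.86 and 4.17, with 6 genes called higher, Mmp7 being the sixth, and 1 lower. Mmp7, the protease that activates defensins, stood at 2.00 (FDR = 0.00333) with all libraries, not over the threshold. Its counts were 4018, 3878 and 3235 in dediHep-derived SOs, where the defensin rows were at 0, 1701, 1897 and 1172 in dediHep-derived BOs, 1806, 644 and 1164 in FIPC-derived SOs and 318, 703, 320 and 305 in ISC-derived BOs. Itln1, an intelectin, was near 0 at -0.08.

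Of 11 factors and receptors of the Paneth cell lineage, 10 were tested between the budding organoids and 0 called, with 2 at FDR below 0.1: Atoh1 at 0.99 (FDR = 0.0957) and Gfi1 at 1.45 (FDR = 0.0936). Sox9 was at 0.29 (FDR = 0.54). Of 7 niche ligands and surface markers, 6 were tested and 0 called, with Wnt3, a ligand that Paneth cells supply to stem cells, at 1.99 (FDR = 0.0192). Between dediHep-derived BOs and SOs, 4 of 10 tested factors and receptors were called higher, where 5.6% of all tested genes were. These were Gfi1 (5.98), Atoh1 (5.57), Fzd5 (2.67) and Neurog3, at least 21.8-fold with 0 counts in SOs. Neurog3 also stands in the list of enteroendocrine markers. Sox9 (-1.02, FDR = 0.0145) and Spdef (-1.36, FDR = 0.016) were lower in BOs at FDR below 0.1 but under the fold threshold. Called higher in BOs were also 4 niche genes, with Wnt3 at 5.28, Dll1 at 3.65, Dll4 at 3.07 and Kit at least 50.7-fold higher. In that comparison 5 of 12 tested granule and secreted genes were called higher (Reg3a, Pla2g2a, Pnliprp2, Itln1 and Spink4), and 10 without dediHep-derived BO library 3. Several of the genes called higher had few or no counts over the SOs, such as Atoh1 (6), Gfi1 (1), Neurog3 (0), Pnliprp2 (1), Reg3a (0) and Pla2g2a (0). They passed the filter on low counts only through the BOs, so their direction was set by the filter and their calls are a description. In the other direction, Habp2 (-1.96, FDR = 0.00302) and Mmp7 (-1.10, FDR = 0.0124) were lower in BOs under the fold threshold, and Habp2 was called lower without dediHep-derived SO library 3. Between ISC-derived BOs and FIPC-derived SOs, 1 factor (Ephb3 at 2.38) and 0 of 5 tested niche genes were called. Of the 15 listed granule and secreted genes, 4 were called higher there, where 4% of all tested genes were: Reg3a (9.93), Pnliprp2 (5.83), Pla2g2a (3.66) and Clps (2.2). Reg3a and Pnliprp2, with 4 and 9 counts over the FIPC-derived SOs, passed the filter only through ISC-derived BOs, so the filter set their direction. Called lower were 2 of that list, where 2.62% of all tested genes were: Mptx1 (-2.93) and Nupr1 (-2.3), which encodes a nuclear protein and no granule product. Of the relatives, Lyz2 (2.83) and Rnase1 (2.91) were called higher.

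The fixed marker sums set the 7 genes beside the other cell types of the organoids. The summed CPM of 11 Paneth cell markers, which include the 7 genes, was 2764.7 to 5073.0 in dediHep-derived BOs, 3700.4 to 4963.1 in ISC-derived BOs and 1236.4 to 2259.6 in FIPC-derived SOs. It was 1282.5 to 1960.1 in dediHep-derived SOs, from summed counts of 4071, 3906 and 3268. Mmp7 alone held 11131 of these counts over the group, so this sum can be high with the 7 genes at or near 0. Goblet cell markers summed to 1139.3 to 1479.7 CPM in dediHep-derived BOs, 470.0 to 1136.6 in ISC-derived BOs and 240.8 to 645.8 in FIPC-derived SOs. Enterocyte markers summed to 2029.2 to 3359.9, 2398.8 to 4052.8 and 294.6 to 506.0 CPM in the same order. In that order, enteroendocrine markers summed to 125.9 to 482.8, 497.7 to 682.8 and 120.1 to 190.9 CPM. Tuft cell markers summed to 5.6 to 14.3 CPM in dediHep-derived BOs and 15.5 to 30.4 in ISC-derived BOs. The dediHep-derived BOs thus lay below the ISC-derived BOs in both and overlapped with them in enterocyte and stem cell markers. In goblet cell markers they lay above them, at the closest 1139.3 against 1136.6 CPM. None of the goblet cell markers was called between these groups. Zg16 (1.9, FDR = 0.00976), Clca1 (1.8, FDR = 0.0341) and Agr2 (1.25, FDR = 0.00934) were higher in dediHep-derived BOs at FDR below 0.1 but under the fold threshold. Muc2 (0.99, FDR = 0.12) and Tff3 (0.74, FDR = 0.148) were also positive, and Fcgbp stood at -0.1 (FDR = 0.904). The part of these cell types in the differences of the 7 genes was not tested.

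Outside the organoids Lyz1 was found at low counts, 120 in all over 17 of 36 libraries. FH had 20, 5 and 2 counts, hepatocytes after 2 weeks of culture 29, 25 and 0, and 1-week cultures 6, 4 and 0. The counts of 11 macrophage markers in the same libraries were 320, 306 and 126 in FH, 687, 518 and 11 after 2 weeks and 424, 99 and 8 after 1 week, and Lyz2 had 67, 45 and 19 counts in FH and 281, 211 and 4 after 2 weeks. In the organoids the picture differed: Lyz1 and Lyz2 were high in dediHep-derived BOs, where 8 of the 11 macrophage markers, C1qa, C1qb, Clec4f, Marco, Vsig4 and Cd5l among them, were at 0. CLiPs had 267, 317 and 305 macrophage marker counts, from at most 3 of the 11 genes, and 0, 0 and 1 count of Lyz1. The part of macrophages in the Lyz1 counts of the hepatocyte libraries was not tested.

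**Figure D5:**
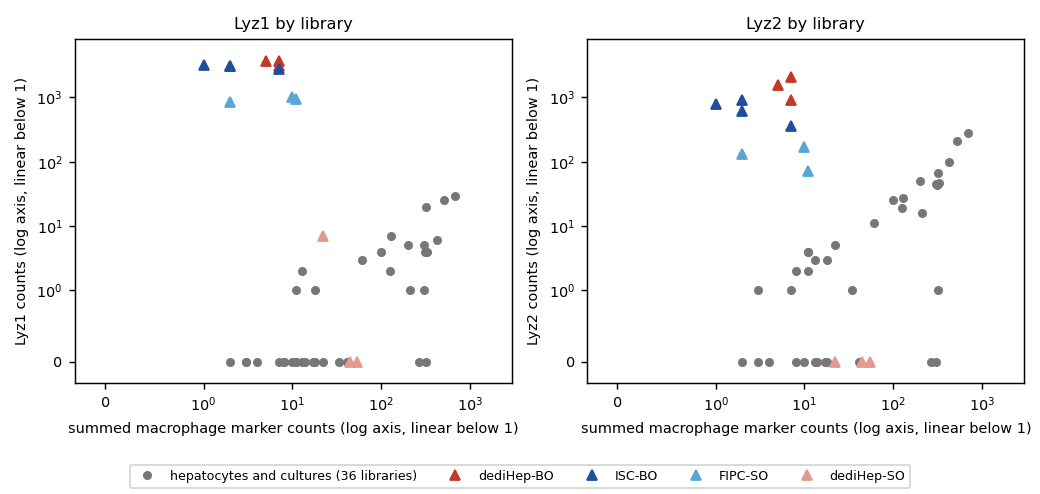
Counts of Lyz1 (left) and Lyz2 (right) against the summed counts of 11 macrophage markers by library (log axes, linear below 1); grey points are the 36 libraries of hepatocytes and their cultures and triangles the organoids. Among the grey points the libraries with the most Lyz1, such as the 2-week cultures with 29 and 25 counts, also hold many macrophage marker counts, whereas the dediHep-derived BOs with 3056 to 3740 Lyz1 counts hold few.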

How the data were processed

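The authors sequenced 3′ ends by CEL-Seq2 and deposited UMI counts per gene, not normalized. Submitters' processing notes name bcl2fastq 2.20, Bowtie2 2.3.1 and HTSeq 0.6.0; the 46078 Ensembl rows match GENCODE M21 on GRCm38. Depth was 861047 to 3872936 counts per library (median 1976760), and bounds cover counting error only. Groups came from the labels, and 0 columns belonged to other samples.

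Each comparison was fitted on its own groups with edgeR 4.0.16 (quasi-likelihood, TMM, filterByExpr with a minimum count of 10 and total of 15) on R 4.3.3. A gene was called at Benjamini-Hochberg FDR below 0.1 with a log2 fold change over 2 in size. CPM in the text used TMM factors over all 49 libraries. A group at 0 was set to 3 counts for fold bounds. A repeated-UMI correction assumed equal use of all 6-base UMIs. Alternatives used DESeq2 1.42.0, other scalings, filters and thresholds, replicate blocks and libraries left out. The scripts were tested on simulated data.

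The genes and lists were chosen with earlier results of these data known. Named were the 7 genes, up to 4 called genes of each list with the largest fold change in the 3 main organoid comparisons, Lyz2, Mmp7, Atoh1 and Sox9, and the 5 genes most like Lyz1, Ang4 and the defensin sum; other names were chosen after their values were seen. The ratio to defensin counts and the list counts and ratios without dediHep-derived BO or SO library 3 were also added after seeing the data. Promoters came from RefSeq, and proteins were not used here. The 54 pairs of replicates all differed by more than counting noise (chi-square per degree of freedom 5.62 to 68).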

Additional observations from a re-analysis of the deposited data

Results flagged for a closer look

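The difference between budding and spherical organoids was tested for a change between dediHep-derived organoids (BOs minus SOs) and intestine-derived organoids (ISC-derived BOs minus FIPC-derived SOs), in a single edgeR fit with an interaction term. For 5 of the 7 genes this term passed both thresholds, and all 5 rose more on the log2 scale in the dediHep-derived pair. Of 12379 tested genes, 5.37% were called in that direction. The interaction on the log2 scale was 9.95 for Ang4 (FDR = 9.29e-06), 8.87 for Defa24 (FDR = 0.00115), 8.55 for Lyz1 (FDR = 9.29e-06), 8.2 for Defa30 (FDR = 0.00298) and 5.22 for Defa22 (FDR = 0.00789). dediHep-derived SOs had 0 counts of the defensin rows, 7 of Lyz1 and 1 of Ang4 over 3 libraries, so these fitted sizes depend on the prior count and are no bounds. From such a start a larger log2 rise was largely set in advance for genes present in dediHep-derived BOs, so the calls are a description. In CPM, Defa24, Defa30 and Defa22 rose more in the intestine-derived pair, and Lyz1 and Ang4 in the dediHep-derived pair. The Cdx2 vector, the medium, the age of the source and the form of the organoid differ within or between these pairs, and their parts cannot be told apart.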

How the results depend on the processing

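Of 644 values of the 7 genes under alternatives, 632 kept direction and side of the threshold. The members called went from 4 to 7 for dediHep-derived BOs against SOs and against FH, without the filter or with all 49 libraries in the fit, from 3 to 5 (corrected UMIs) or 6 (FDR 0.05, log2 fold 1) for ISC-derived BOs against FIPC-derived SOs, and from 0 to 1 for dediHep-derived SOs against dediHeps with all 49. Leaving out a library gave 6 to 6 members for dediHep-derived against ISC-derived BOs, 4 to 5 against SOs, 2 to 5 for ISC-derived BOs against FIPC-derived SOs, 5 to 5 for SOs against FIPC-derived SOs, 0 to 0 against dediHeps, 4 to 5 and 7 to 7 against FH, and 5 to 5 for the interaction. The genes called, in the same order, were 345 (292 to 479 without a library; 798 without the filter; 588 at FDR 0.05 and log2 fold 1), 1275 (1234 to 2108; 2385; 2970; 1953 with all 49 libraries), 771 (732 to 878; 1504; 1336), 1034 (1023 to 1716; 2052; 1855; 1558 with all 49), 1005 (758 to 1214; 1652; 1678 with all 49), 3036 (3161 to 3878; 4670; 5036), 3173 (2969 to 3598; 5055; 5075) and 1170 (749 to 2157; 1758). Leaving out dediHep-derived SO library 3 gave the counts of 2108, 1716 and 2157, and library 1 that of 749; without FIPC-derived SO library 3, 5 members were called for ISC-derived BOs against FIPC-derived SOs. Reversals came only with a library left out: Ephb3 (-0.21 to 0.05) and Itln1 (-0.27 to 0.23) between BOs, Ang (-0.18 to 0.46) and Atoh1 (-0.44 to 0.23) for ISC-derived BOs against FIPC-derived SOs, and Gm14851 in the interaction (-0.53 without FIPC-derived SO library 1, up to 1.34); the cause was not tested. With totals only, Lyz1 in FIPC-derived SOs was 403.3 CPM. Libraries of equal replicate number were the best match in 0 of 3 pairs between the BOs. They were so in 3 of 3 pairs of dediHep-derived BOs and FH (r = 0.064 to 0.266) and in 1 of 3 pairs of the SOs (r up to 0.555). With a replicate block Lyz1 between BOs was 0.23 and Ang4 2.33, and no count of called members changed. Depth limits the rarer defensin rows, with 7 to 16 counts a library in dediHep-derived BOs.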

Other observations

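Genes whose levels ran most like those of the 7 genes were listed by Pearson's r of log2(CPM + 1) over all 49 libraries, among 14231 genes with at least 5 CPM in 3 libraries. The points share depth and fall into groups, most of them at or near 0, so r describes the pattern and carries no test. For Lyz1 the closest genes were Smoc2 (0.966), a crypt stem cell gene, Chgb (0.954), an enteroendocrine granin, Slc5a1 (0.952), the sodium-glucose transporter of enterocytes, and the alpha-defensins Defa3 (0.949) and Defa17 (0.948). For Ang4 they were Hepacam2 (0.986), the mucin Muc3a (0.982), Guca2a (0.977), which encodes guanylin, Slc5a1 (0.975) and Rgcc (0.975). For the sum of the 5 defensin rows all 5 closest genes were alpha-defensins, Defa31 and Defa23 (0.999 each), Defa17 and Defa3 (0.998 each) and Defa37 (0.992). All 5 share 3′ words with members: Defa17 and Defa3 held 25.5% and Defa23 and Defa31 20.3% of the words of Defa30, and Defa37 2.28% of those of Defa22. No defensin stood among the 5 genes closest to Ang4.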
